A study of Mus musculus with 8 samples.

Results

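The 10 genes described here follow a muscle stem cell from rest to a mature fibre: Pax7, Myf5, Myod1, Myog, Myf6, Mymk, Mymx, Cdh15, Mef2c and Des. They were taken by symbol from a table of 41709 gene symbols, and all 10 were found in it. mRNA levels were measured by RNA-seq in 8 tibialis anterior (TA) muscles, the muscle at the front of the lower leg, of 3-month-old male C57BL/6J mice. In each of 4 mice, 1 TA muscle was electroporated with Uba1 siRNAs (siUBA1) and the contralateral muscle with non-targeting siRNAs (siNT), and both were collected a week later. Each siRNA was a pool of several sequences for the same target, and every muscle, the controls included, was also pretreated with hyaluronidase, injected and pulsed. UBA1 is the main enzyme that activates ubiquitin at the start of the ubiquitination cascade. A muscle with siUBA1 and a muscle with siNT that share a replicate number come from the same mouse, and siNT went to the right leg and siUBA1 to the left in all 4 mice, so leg and siRNA cannot be told apart. The treatment field of the labels names the siRNA of the 4 replicates UBA1, UBA2, UBA3 and UBA4, whereas the titles and the study name UBA1 for all 4.

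Satellite cells are the stem cells of muscle, lying between the fibre and its basement membrane. They carry the transcription factor PAX7, and after injury they divide, switch on the MYOD family of transcription factors, and fuse to each other or to the fibre with the help of membrane proteins made at that moment. Fibre nuclei also make some of these mRNAs, above all Myf6, Mef2c and Des, so the RNA of a whole muscle mixes stem cell, precursor and fibre signals. In such bulk RNA, fewer cells of a type and less RNA per cell cannot be told apart.

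MYOD family proteins bind the E-box, written CANNTG, which reads the same on both strands. Stretches before the RefSeq start of Myog and Myf5 are shown because these genes code for 2 members of that family and only one of the stretches holds an E-box. The capitals mark E-boxes, and positions count back from -1, the base before the start. Both sequences are RefSeq's, from a table built on GRCm38.p6, and were placed by exact match in GRCm39. The Myog stretch, chr1:134217492-134217735 on the plus strand, spans -250 to -7, and its last 29 bases lie in the 5′ UTR of the GENCODE M39 model of Myog. The Myf5 stretch, chr10:107321996-107322245 on the minus strand, spans -250 to -1 and ends just before the GENCODE M39 model of Myf5 begins.
Myog: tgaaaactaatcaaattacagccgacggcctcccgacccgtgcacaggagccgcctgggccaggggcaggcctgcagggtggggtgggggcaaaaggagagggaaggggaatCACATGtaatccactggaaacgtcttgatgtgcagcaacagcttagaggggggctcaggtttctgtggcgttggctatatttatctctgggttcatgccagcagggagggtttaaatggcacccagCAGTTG
Myf5: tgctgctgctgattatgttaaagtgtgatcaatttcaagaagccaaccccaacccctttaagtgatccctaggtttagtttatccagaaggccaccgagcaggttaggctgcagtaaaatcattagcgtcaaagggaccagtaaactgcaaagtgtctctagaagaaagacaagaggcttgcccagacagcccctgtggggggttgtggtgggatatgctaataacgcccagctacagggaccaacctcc

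Myog held 2 E-boxes, CACATG at -138 to -133 and CAGTTG at -12 to -7, and Myf5 held none. In the 250 bases before the start, at least 1 E-box was found for Myog, Cdh15, Mef2c and Des, which is 4 of the 6 genes of the set in that table, beside 66.0% of all 27025 promoters. The form CAGCTG, which is also an E-box, was found for Des alone of the 6, beside 12.8% of all promoters. The MEF2 motif was searched on both strands in 1 strict form: CTA, then 4 letters that are A or T, then TAG. It was found in 0 of the 6, beside 0.518% of all promoters. Looser forms were not searched, so the 0 does not show that these genes lack a MEF2 site. All these motif counts are matches of letters only. Myod1, Myf6, Mymk and Mymx had no entry.

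All levels are TPM, in which transcripts are counted per length of the gene and scaled to the same total in each muscle, so that levels can be compared between genes. The differences between siRNAs are log2FC values of log2(TPM + 1), siUBA1 minus siNT, from limma across the 11530 genes with at least 1 TPM in at least 4 of the 8 muscles. All 10 genes of the set passed that filter, Mymx with 4 muscles and no more. Total read numbers are not given in the sources used here. The lowest TPM values rest on few reads, and the reads behind them could be estimated because TPM multiplied by gene length moves in steps of 1 read. Because only 39.3% to 40.9% of low values fell on whole reads with GENCODE lengths, where 10% would do so by the tolerance alone, these read numbers are estimates, and they are used for description only.

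Uba1 mRNA was 60.6, 59.0, 63.6 and 59.1 TPM with siNT (replicates 1 to 4) and 18.1, 6.77, 15.8 and 23.1 TPM with siUBA1. The groups did not overlap, as was so for 1.01% of genes tested with siUBA1 lower. The log2FC was -1.98 ± 0.29 (SE, n = 4 muscles a group), with a limma adjusted p = 0.0527 without pairing and 0.0278 with the 2 legs of a mouse paired. Mitochondrial transcripts took 42.1% to 45.7% of TPM with siNT and 39.9% to 50.3% with siUBA1, the highest share being in siUBA1 replicate 2, which also had the least Uba1 mRNA. The median log2FC over all genes tested was 0.11, and 81.8% of genes tested had a log2FC above 0. After median-ratio scaling, in which each muscle is divided by the median ratio of its genes to their geometric mean over muscles, the median was 0.0018 and 50.7% were above 0.

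No gene of the set passed an adjusted p of 0.05 in limma, beside 3 genes, or 0.0260% of those tested. At an unadjusted p under 0.05 there was 1 gene of the set as deposited, Cdh15, which was higher with siUBA1, as 16.0% of genes tested were at that threshold. No gene of the set was lower at that threshold, beside 1.98% of genes tested. The log2FC was above 0 for 5 of the 10 genes, and their median was -0.0027. After median-ratio scaling, 4 were above 0, the median was -0.10, and 1 gene, Myf6, was lower at an unadjusted p under 0.05, beside 6.16% of genes tested lower and 4.44% higher at that threshold. In all 10 genes the 2 groups of muscles overlapped, beside 10.6% of genes tested whose groups lay apart with siUBA1 higher. Set against its contralateral muscle, siUBA1 was higher in 4 of 4 mice for Myod1 and Cdh15, as for 32.2% of genes tested, and lower in 4 of 4 mice for none of the 10, beside 2.98% of genes tested.

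**Figure D1:**
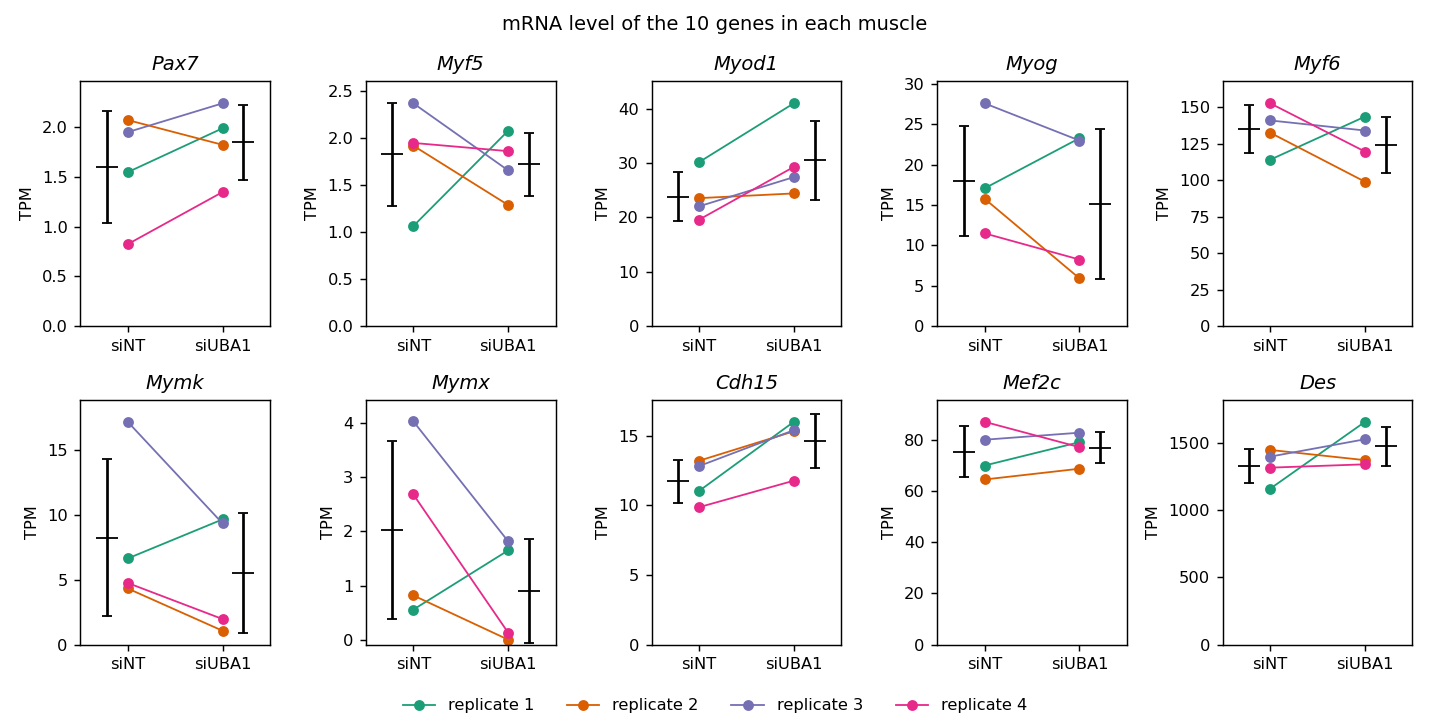
TPM of each of the 10 genes (vertical axis) in the muscles with siNT and siUBA1. Points are single muscles, lines join the 2 legs of a mouse, and the black bars beside each group are the mean ± SD of 4 muscles. Myod1 and Cdh15 lie higher with siUBA1 in all 4 mice, whereas Myf5, Myf6, Myog, Mymk and Mymx lie lower in 3 of 4. Myog, Mymk and Mymx spread widely within each group.

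By level, the genes of mature fibres came first. Des, coding for desmin, the intermediate filament that ties neighbouring myofibrils together, had a median of 1385 TPM over the 8 muscles. Myf6 and Mef2c followed at 133 and 78.2 TPM, and Myod1 at 25.9 TPM. Each of the first 3 was above the next in all 8 muscles, and the ranges of these 4 genes did not overlap. Below them the order was Myog (16.4 TPM), Cdh15 (13.0 TPM), Mymk (5.69 TPM), Myf5 (1.893 TPM), Pax7 (1.886 TPM) and Mymx (1.23 TPM), where every neighbour overlapped the next. Myf5 was above Pax7 in 4 of 8 muscles, so those 2 genes have no order.

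Pax7 marks the satellite cell and is needed to keep it. Its mRNA was 1.55, 2.07, 1.95 and 0.823 TPM with siNT and 1.99, 1.82, 2.24 and 1.35 TPM with siUBA1. The lowest muscle of each group was that of the mouse of replicate 4, and the other 3 siUBA1 muscles lay within 1.82 to 2.24 TPM. The log2FC was 0.15 ± 0.17 (SE), with a 95% interval of -0.24 to 0.54 and a limma adjusted p = 0.634, and it was -0.0086 without siNT replicate 4. An estimated 70 to 190 reads a muscle stood behind these values.

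Myf5 codes for a determination factor whose mRNA resting satellite cells already carry. It was 1.07, 1.92, 2.37 and 1.95 TPM with siNT and 2.08, 1.29, 1.66 and 1.86 TPM with siUBA1. Every siUBA1 value lay between the lowest and the highest siNT value. The log2FC was -0.04 ± 0.16 (SE), with a 95% interval of -0.39 to 0.31 (limma adjusted p = 0.898), on an estimated 35 to 74 reads a muscle.

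Cdh15 codes for M-cadherin, the adhesion protein between the satellite cell and its fibre and between fusing myoblasts. Its mRNA was 11.02, 13.2, 12.8 and 9.86 TPM with siNT and 16.0, 15.3, 15.4 and 11.8 TPM with siUBA1. The siUBA1 muscles of replicates 1 to 3 lay above every siNT muscle, and replicate 4 was below 2 of them but above the siNT muscle of its own mouse. The mean was 11.7 ± 1.56 TPM with siNT and 14.6 ± 1.92 TPM with siUBA1 (SD, n = 4).
The log2FC was 0.30 ± 0.12 (SE), with a 95% interval of 0.03 to 0.56 (limma adjusted p = 0.242 and exact permutation p = 0.0857, two-sided, where the smallest possible is 0.0286). With the legs of a mouse paired, the limma adjusted p was 0.0990. Median-ratio scaling gave a log2FC of 0.18 and an interval of -0.06 to 0.42. Of the 3 genes that mark satellite cells, Pax7 and Cdh15 were higher on average and Myf5 was not, beside 81.8% of genes tested with a log2FC above 0. None of the 3 passed the adjusted p.

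Myod1 codes for the factor that commits an activated satellite cell to the muscle lineage, and fast fibres also carry its mRNA. It was 30.2, 23.6, 22.05 and 19.6 TPM with siNT and 41.0, 24.4, 27.4 and 29.3 TPM with siUBA1. The 2 highest muscles were the 2 legs of the mouse of replicate 1, and siUBA1 exceeded siNT in each mouse, by 0.05 to 0.56 on the log2(TPM + 1) scale. The log2FC was 0.34 ± 0.17 (SE), with a 95% interval of -0.05 to 0.72 and a limma adjusted p = 0.319. The exact permutation p was 0.143. With the legs paired, the limma adjusted p was 0.111. The log2FC was 0.22 after median-ratio scaling and 0.19 without siUBA1 replicate 1.

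Myog codes for myogenin, which switches on terminal differentiation of myoblasts and is also made by fibres that have lost their nerve. Its mRNA was 17.0, 15.8, 27.6 and 11.5 TPM with siNT and 23.3, 5.90, 23.0 and 8.23 TPM with siUBA1. The siUBA1 muscles lay at 2 levels: replicates 1 and 3 were above every siNT muscle but replicate 3, and replicates 2 and 4 were below every siNT muscle. The highest muscle was 2.40-fold the lowest with siNT and 3.94-fold with siUBA1. The log2FC was -0.39 ± 0.43 (SE), with a 95% interval of -1.35 to 0.58 (limma adjusted p = 0.630), and siUBA1 was lower in 3 of 4 mice. The log2FC was -0.05 without siUBA1 replicate 2, -0.19 without siUBA1 replicate 4 and -0.17 without siNT replicate 3, and -0.65 without siUBA1 replicate 1 or 3.

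Myf6 codes for MRF4, the MYOD family member most abundant in adult fibres. Its mRNA was 114, 133, 141 and 153 TPM with siNT and 144, 98.9, 134 and 120 TPM with siUBA1. The lowest value was again that of siUBA1 replicate 2, and the groups overlapped widely. The log2FC was -0.13 ± 0.13 (SE) as deposited, with a 95% interval of -0.42 to 0.16 (limma adjusted p = 0.589). It was -0.02 without siUBA1 replicate 2, -0.07 without siNT replicate 4, -0.21 without siNT replicate 1 and -0.20 without siUBA1 replicate 1. After median-ratio scaling it was -0.25, with an interval of -0.48 to -0.02 (limma adjusted p = 0.438).

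Mef2c codes for a MADS-box factor that works with the MYOD family on muscle promoters. Its mRNA was 69.99, 64.5, 80.1 and 87.1 TPM with siNT and 79.1, 68.7, 82.8 and 77.2 TPM with siUBA1. Every siUBA1 muscle lay within the siNT range, with a log2FC of 0.04 ± 0.10 (SE) and a 95% interval of -0.19 to 0.26 (limma adjusted p = 0.858). The sign depends on the scaling, since median-ratio scaling gave -0.09.

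Des mRNA was 1159, 1448, 1398 and 1316 TPM with siNT and 1657, 1372, 1527 and 1341 TPM with siUBA1. The lowest and the second lowest siUBA1 muscle lay inside the siNT range and the other 2 above it. The log2FC was 0.15 ± 0.10 (SE), with a 95% interval of -0.07 to 0.37 (limma adjusted p = 0.414). It was 0.03 after median-ratio scaling, 0.08 without siNT replicate 1 and 0.09 without siUBA1 replicate 1.

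**Figure D2:**
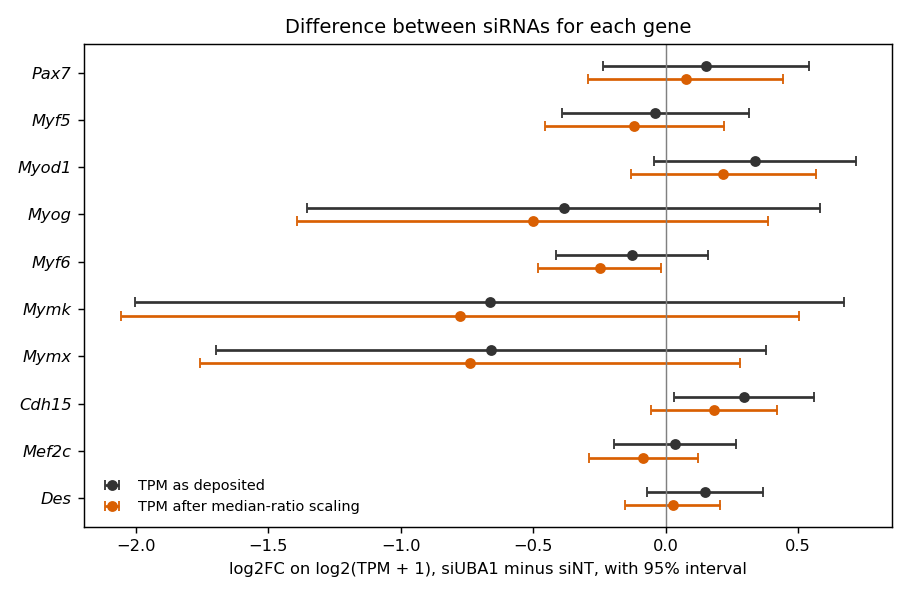
log2FC of each gene (siUBA1 minus siNT, on log2(TPM + 1)), with its 95% interval from limma, for TPM as deposited (black) and after median-ratio scaling (orange). The interval leaves out 0 for Cdh15 as deposited and for Myf6 after scaling, and the intervals of Myog, Mymk and Mymx are the widest of the 10.

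Mymk codes for myomaker, the membrane protein that lets myoblasts merge their membranes and that has little use outside fusion. The gene lies at chr2:26951627-26962228 on the minus strand (GRCm39). Its mRNA was 6.63, 4.32, 17.2 and 4.74 TPM with siNT and 9.64, 1.06, 9.33 and 1.96 TPM with siUBA1. As for Myog, siNT replicate 3 was highest and siUBA1 replicates 2 and 4 were below every siNT muscle, while siUBA1 replicates 1 and 3 came next. The highest muscle was 3.98-fold the lowest with siNT and 9.11-fold with siUBA1.
The log2FC was -0.66 ± 0.59 (SE), with a 95% interval of -2.00 to 0.67 (limma adjusted p = 0.545). With the legs of a mouse paired, the limma adjusted p was 0.179. Without siUBA1 replicate 2 the log2FC was -0.23, without siNT replicate 3 it was -0.27, and without siUBA1 replicate 4 it was -0.40. Without siUBA1 replicate 1 it was -1.02, and without siUBA1 replicate 3 it was -1.01. The gap between the legs of the mouse of replicate 2 exceeded counting error, since siUBA1 replicate 2 held an estimated 25 reads (95% Poisson interval, counting error only, 16.2 to 36.9) and the siNT muscle of the same mouse 101 reads (82.3 to 123).

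Mymx codes for myomerger, also called myomixer, the small membrane protein that acts after myomaker to complete fusion. The gene lies at chr17:45911239-45913028 on the minus strand (GRCm39). Its mRNA was 0.556, 0.817, 4.03 and 2.68 TPM with siNT and 1.65, 0, 1.82 and 0.128 TPM with siUBA1. Again siNT replicate 3 was highest and siUBA1 replicates 2 and 4 lowest, but siNT replicate 4, low in Myog and Mymk, was the second highest here.
The value of 0 rests on 0 estimated reads, which by a limit of 3 reads allows up to 0.187 TPM, and siUBA1 replicate 4 on 2 reads (0.242 to 7.23). The siNT muscles of the same mice held 13 reads (6.92 to 22.2) and 40 reads (28.6 to 54.5). The log2FC was -0.66 ± 0.46 (SE), with a 95% interval of -1.70 to 0.38 (limma adjusted p = 0.441), and siUBA1 was lower in 3 of 4 mice. Its size depends on the pseudocount, being -1.62 when 0.1 TPM is added in place of 1. Without siUBA1 replicate 2 it was -0.40.

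**Figure D3:**
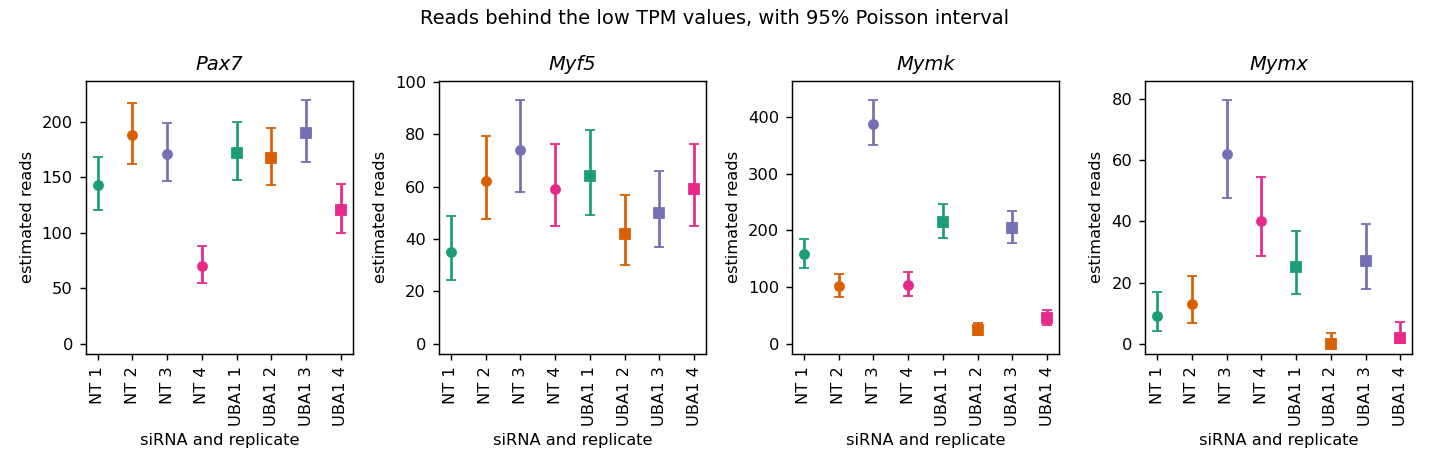
Estimated reads (vertical axis) behind the TPM values of Pax7, Myf5, Mymk and Mymx in each muscle, circles for siNT and squares for siUBA1, coloured by mouse, with the exact 95% Poisson interval of counting error. For Mymk and Mymx, siUBA1 replicates 2 and 4 lie below the other muscles, with 25 and 45 reads for Mymk and 0 and 2 for Mymx, while the lowest muscle for Pax7 and for Myf5 is one with siNT.

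In siUBA1 replicate 2, Myog was 1.20 and Mymk 1.64 below its own mean over the 8 muscles on the log2(TPM + 1) scale, whereas Cdh15 was 0.22 and Pax7 0.07 above and Myod1 0.12 below. In siUBA1 replicate 4, where Myog was 0.78 and Mymk 1.11 below, Cdh15 was 0.13 and Pax7 0.19 below and Myod1 0.14 above. In siNT replicate 4, the lowest siNT muscle for Myog, the values of Pax7, Cdh15 and Myod1 were the lowest of the 8. The ratio of Myod1 to Myog TPM, which sets commitment beside differentiation, was 1.77, 1.49, 0.799 and 1.71 with siNT and 1.76, 4.14, 1.19 and 3.56 with siUBA1. This ratio was chosen after its values were seen. It was highest in siUBA1 replicates 2 and 4 and close to equal in the legs of replicate 1.

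Genes that young and regenerating fibres use showed the same muscles as high and low. Of the 21 such genes tested, 15 were lowest in siUBA1 replicate 2, beside 19.4% of all genes tested, and 11 were highest in siNT replicate 3, beside 5.11%. After median-ratio scaling the counts were 14 and 12, beside 15.8% and 12.2%. Of the 10 genes of the set, 4 were lowest and 4 highest in those muscles. Myh3, the embryonic myosin heavy chain, was 12.2, 5.39, 21.7 and 8.99 TPM with siNT and 13.997, 0.760, 11.8 and 6.45 TPM with siUBA1. Actc1, the cardiac actin that young skeletal fibres also make, was 1532, 751, 2071 and 1006 TPM with siNT and 1680, 189, 1821 and 437 TPM with siUBA1. Both were chosen for display after their values were seen, as were Myh8, Myl4 and Chrna1 in the heat map, which repeat that order of muscles in part.

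**Figure D4:**
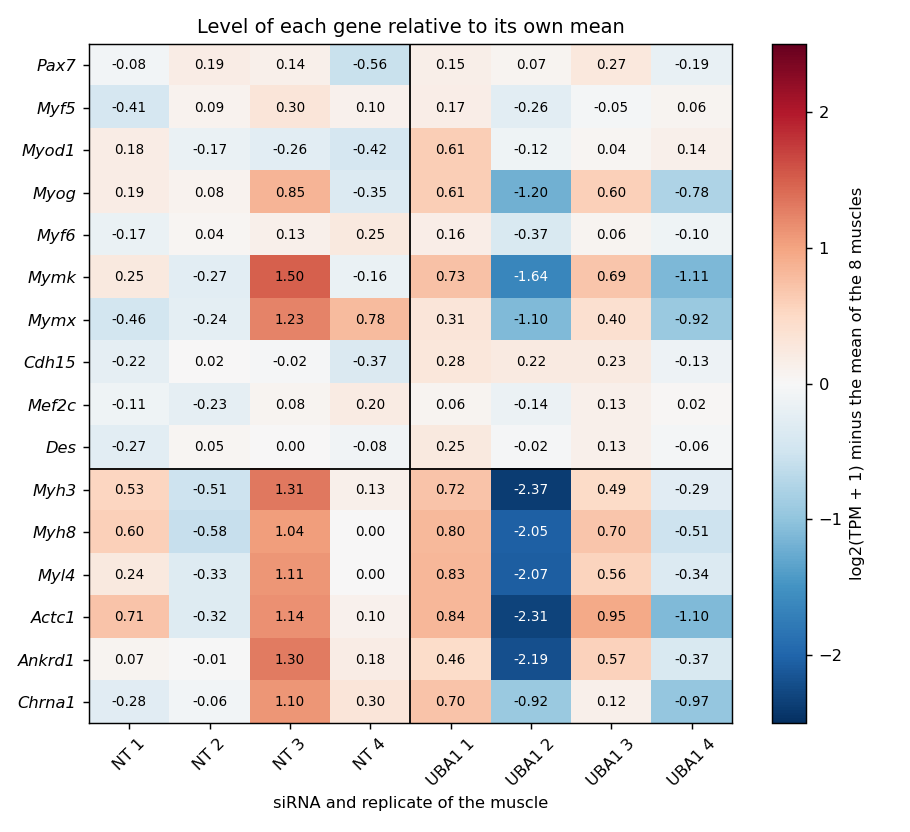
Heat map of log2(TPM + 1) minus the mean of the 8 muscles, for the 10 genes (above the line) and 6 genes of young or denervated fibres (below it), with muscles as columns and the value printed in each cell. Mymk is 1.503 above its mean in siNT replicate 3 and 1.64 below it in siUBA1 replicate 2, and Myh3 is 1.31 above and 2.37 below in the same muscles, while Mef2c and Des stay within 0.27 of their means in every muscle.

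Denervated fibre genes, satellite cell identity and niche genes, and macrophage, fibro-adipogenic and dividing-cell markers followed parts of that order. The summed TPM of 15 macrophage and leukocyte markers was 252, 326, 522 and 186 with siNT and 405, 184, 571 and 208 with siUBA1, so siNT replicate 3 and siUBA1 replicates 1 and 3 were the 3 highest muscles, as they were for Myog and Mymk. The 3 lowest muscles were siNT replicate 4 and siUBA1 replicates 2 and 4, again as for Myog. Of the 12 of these markers that passed the filter, 8 were higher and 4 lower with siUBA1, beside 81.8% of genes tested above 0. After median-ratio scaling 5 of the 12 were higher, beside 50.7%. None was at an unadjusted p under 0.05 in limma, beside 16.0% higher and 1.98% lower, and no marker was at 0 in all muscles. Without siUBA1 replicate 2, 11 of the 12 were higher and 1 lower, beside 87.8% of genes tested above 0. The 13 fibro-adipogenic and tendon cell markers summed to 606 to 1171 TPM with siNT and 744 to 1446 TPM with siUBA1, and their 3 highest muscles were the same 3, siNT replicate 3 at 1171 TPM and siUBA1 replicates 1 and 3 at 1249 and 1446 TPM. Of these markers, 12 of 13 were higher with siUBA1 (11 after median-ratio scaling). At an unadjusted p under 0.05, 2 were higher as deposited, 1 after scaling and 5 with the legs paired, beside 16.0%, 4.44% and 22.4% of all genes tested. The 14 dividing-cell markers, 3 of which passed the filter, summed to 23.4, 24.9, 29.0 and 23.7 TPM with siNT and 26.5, 15.7, 25.4 and 21.1 TPM with siUBA1. Their 3 highest muscles were again the same 3, and siUBA1 replicates 2 and 4 were the 2 lowest. The 16 denervated fibre genes summed to 145, 171, 222 and 170 TPM with siNT and 202, 128, 194 and 133 TPM with siUBA1, with the same 3 muscles highest and siUBA1 replicates 2 and 4 lowest, and 7 of the 14 tested were highest in siNT replicate 3. The 34 genes of satellite cell identity and niche summed to 501, 501, 541 and 456 TPM with siNT and 540, 455, 590 and 463 TPM with siUBA1. Again the same 3 muscles were highest. Endothelial, pericyte and Schwann cell markers did not share the order throughout. The 10 endothelial markers summed to 183 TPM in siNT replicate 3 and 227 TPM in siUBA1 replicate 2, within a range of 168 to 241 TPM, and the 11 pericyte and smooth muscle markers to 365 and 368 TPM, within 333 to 468 TPM. The 9 Schwann cell markers were lowest in siUBA1 replicates 4 and 2, at 62.7 and 66.6 TPM, but next lowest in siNT replicate 3, at 81.6 TPM.
Mature fast fibre genes were lowest in siUBA1 replicate 2 as well, for 11 of 14, beside 19.4% of all genes tested. After median-ratio scaling this held for 10 of 14, beside 15.8%. Their sum was 140182 TPM there beside 164641 to 198311 TPM in the other 7 muscles. With siUBA1, 3 were higher and 11 lower, beside 81.8% of genes tested above 0, and none was at an unadjusted p under 0.05 in limma. After median-ratio scaling 2 were above 0, beside 50.7%, and 7 were lower at that threshold, beside 6.16%. The share of mitochondrial transcripts was highest in siUBA1 replicate 2, at 50.3%. It was lowest in siNT replicate 3 and siUBA1 replicates 1 and 3, at 42.1%, 40.2% and 39.9%. These 3 muscles also had the largest median-ratio factors, at 0.990, 1.12 and 1.12. The marker sums above are TPM without that scaling. The part of these markers and of the mitochondrial share in the levels of Myog, Mymk and Mymx was not tested. After TPM were rescaled without mitochondrial genes, the log2FC was -0.39 for Myog, -0.75 for Mymk and -0.90 for Mymx, and it stayed at 0.36 for Myod1 and 0.32 for Cdh15.

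Among 28 tested genes of satellite cell identity and niche, 20 were higher and 8 lower with siUBA1, and 3 were higher and 2 lower at an unadjusted p under 0.05, beside the 81.8% of genes tested above 0 and the 16.0% higher and 1.98% lower at that threshold. After median-ratio scaling 10 of 28 were above 0, beside 50.7%, with 1 higher and 2 lower at an unadjusted p under 0.05, beside 4.44% and 6.16%. None passed the adjusted p in the unpaired fit, as deposited or scaled. The smallest p belonged to Sdc4, syndecan-4, a surface proteoglycan that satellite cells carry, at 33.1 to 43.0 TPM with siNT and 19.1 to 25.3 TPM with siUBA1. Its groups did not overlap, as for 1.01% of genes tested with siUBA1 lower. Its log2FC was -0.75 ± 0.11 (SE), and its limma adjusted p was 0.0527, and 0.0098 with the legs of a mouse paired. The adhesion protein gene Vcam1 (-0.54), the Notch ligand gene Jag1 (0.39) and the growth factor signalling inhibitor gene Spry1 (0.31) came next by p, with limma adjusted p of 0.150, 0.189 and 0.221. With pairing and median-ratio scaling together, the limma adjusted p was 0.0075 for Sdc4, 0.0479 for Vcam1 and 0.0380 for Hes1. In that fit 77 of all genes tested passed 0.05.

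Of 29 tested cofactors and inhibitors of the myogenic factors, 20 were higher and 9 lower, beside 81.8% of all genes tested above 0. At an unadjusted p under 0.05, 4 were higher and 3 lower (16.0% and 1.98% of all genes tested), and none passed the adjusted p. After median-ratio scaling 11 of 29 were above 0, beside 50.7%, with 1 higher and 5 lower at an unadjusted p under 0.05 (4.44% and 6.16% of all genes tested). Those with the smallest p were Msc, a repressor that competes with the MYOD family (log2FC -0.51), Snai2, a repressor that binds E-boxes (0.47), Id1, which blocks the partners of the MYOD family (-0.60), and Tcf4, one of those partners (0.19). Their limma adjusted p were 0.182 to 0.232.

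Of 25 tested genes of myoblast adhesion and fusion, 19 were higher and 6 lower, with 7 higher and 0 lower at an unadjusted p under 0.05, beside 16.0% and 1.98% of all genes tested. This is the direction in which most genes tested lay, with 81.8% above 0. After median-ratio scaling 11 of 25 were above 0, beside 50.7%, with 2 higher and 1 lower at an unadjusted p under 0.05, beside 4.44% and 6.16%. Stab2 codes for a receptor for phosphatidylserine that has been tied to myoblast fusion and is best known from sinusoidal endothelium. Its mRNA was 2.08 to 2.66 TPM with siNT and 3.64 to 5.03 TPM with siUBA1. The groups did not overlap, as for 10.6% of genes tested with siUBA1 higher. The log2FC of Stab2 was 0.61 ± 0.10 (SE), with a limma adjusted p = 0.0760. It was 0.202 with median-ratio scaling, 0.0478 with the legs of a mouse paired, and 0.109 with pairing and median-ratio scaling together. Neo1, Boc and Rac1, for 2 surface receptors and a small GTPase, came next at log2FC 0.20, 0.52 and 0.16, with limma adjusted p of 0.182 to 0.225. Mymk and Mymx, whose proteins carry out fusion itself, lay the other way, with wider intervals.

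Of the 21 genes of embryonic and regenerating fibres, 4 were higher and 17 lower with siUBA1, with a median log2FC of -0.33, beside 0.11 and 81.8% above 0 for all genes tested. Without siUBA1 replicate 2, in which 15 of these genes were lowest, 11 were higher and 10 lower, with a median of 0.05. For all genes the median was then 0.14, with 87.8% above 0. Leaving out a siUBA1 muscle in which genes are lowest raises their log2FC by construction. After median-ratio scaling, with all muscles, 1 of 21 was above 0, beside 50.7%, and the median was -0.45, with 4 lower at an unadjusted p under 0.05, beside 6.16% of all genes tested. As deposited 1 was lower at that threshold, beside 1.98%, namely Xirp1, which codes for an actin-binding repair protein of the fibre, with a log2FC of -0.94 ± 0.23 (SE) and a limma adjusted p = 0.147. Xirp2 (0.10), Vim (-0.33) and Ankrd1 (-0.77) were next by p, with limma adjusted p of 0.401 to 0.470. Of 21 genes of the desmin network, 14 were higher and 7 lower, beside 81.8% of all genes above 0, and Lmna, for lamins A and C, was the single one at an unadjusted p under 0.05 as deposited (log2FC -0.48, limma adjusted p = 0.143). It was followed by Lmnb1 (-0.17), Mtm1 (0.16) and Dmd (0.24). After median-ratio scaling 7 of these 21 were above 0, beside 50.7%, with 6 lower at an unadjusted p under 0.05, beside 6.16% of all genes tested.
Of 14 genes of denervated fibres, 5 were higher and 9 lower, beside 81.8% of all genes above 0, and the 3 at an unadjusted p under 0.05 were all higher, as were 16.0% of all genes tested: Lrp4 (0.37), Rapsn (0.24) and Musk (0.46), which code for proteins that gather acetylcholine receptors under the nerve ending. Their limma adjusted p were 0.174 to 0.250, and the fourth by p, Dok7, had a log2FC of 0.25. After median-ratio scaling none of this list was higher at an unadjusted p under 0.05 and 1 was lower, beside 4.44% and 6.16%. No gene of these 3 lists passed the adjusted p.

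With the legs of a mouse paired in limma, 57 genes, or 0.494% of those tested, passed the adjusted p, and still none of the 10. At an unadjusted p under 0.05 this fit held 3 of the 10, namely Myod1 and Cdh15 higher, beside 22.4% of genes tested, and Mymk lower, beside 2.80%. The 95% intervals of Myog, Mymk and Mymx in the unpaired fit reached down to -1.35, -2.00 and -1.70.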

How the data were processed

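Mouse TA muscle RNA was sequenced as 100-bp paired-end reads by the authors, who trimmed the reads, aligned them to GRCm39 and quantified genes with CLC Genomics Workbench. The deposited values are TPM, 1 column per muscle for 41709 gene symbols, and the annotation, the handling of reads that match several genes and the strand setting are not given in the sources used here. TPM hold no read numbers, so no count model was used, and they add up to the same total in every muscle.

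The 10 genes and the lists of related genes were chosen with earlier results of these data known. The fit was limma 3.58.1 (R 4.3.3; lmFit, eBayes with trend) on log2(TPM + 1) over all 8 muscles, keeping genes with 1 TPM or above in 4 muscles or more, with Benjamini-Hochberg adjustment over the 11530 genes tested and a threshold of 0.05. The study's unpaired design on log TPM was kept, and its Kruskal-Wallis test was an alternative. Exact permutation tests over the 70 splits of the muscles were two-sided. The 2 legs of a mouse share a number in the titles. The deviations of the same-numbered muscles from their group means correlated at -0.00037, 0.20, 0.58 and 0.54 over genes, and the pairing is taken from the mouse. Alternatives were a pseudocount of 0.1, a mean of 5 TPM, no filter, median-ratio and quantile scaling, TPM without mitochondrial genes, the replicate block, and leaving out each muscle. Leaving out both legs of each mouse, and no filter with median-ratio scaling, were added after seeing the data. Each muscle is 1 library. The unpaired p-values, those of the permutation tests included, treat the 8 muscles as independent although they come from 4 mice. The paired p-values measure the spread of the differences between legs over the 4 mice.

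All 10 genes are named, and from each other list up to 4 genes with the smallest unadjusted p. 1 fusion gene, Kirrel1, was not found under that symbol. Reads were estimated from the steps in TPM times gene length, as whole numbers within 0.05 of a read, with GENCODE M39 lengths for Pax7 and Myf5 and a length found from the steps for Mymk and Mymx. Intervals cover counting error only, and a value of 0 was given the limit of 3 reads. The scripts were tested on simulated data.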

Additional observations from a re-analysis of the deposited data

Results flagged for a closer look

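Cdh15 in siUBA1 replicate 4 was 11.8 TPM, apart from the other 3 siUBA1 muscles at 15.3 to 16.0 TPM by more than Dixon's gap test for 4 samples allows. It was the 1 muscle so set apart in 22 groups of 4 values, those of the 10 genes and Uba1 under each siRNA. Chance flags about 1 in 20 groups, or 1.1 of 22. The siNT muscle of the same mouse was also the lowest of its group, at 9.86 TPM, and without siUBA1 replicate 4 the log2FC of Cdh15 was 0.39 (limma adjusted p = 0.151).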

How the results depend on the processing

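No gene of the set passed the adjusted p under any alternative run, and 4 to 6 of those tested had a log2FC above 0 throughout. Over all genes, 3 passed the adjusted p as reported, 11 with a mean of 5 TPM, 23 with median-ratio scaling, 28 with quantile normalization, 14 without mitochondrial genes, 7 with no filter and median-ratio scaling, and 0 by the Kruskal-Wallis test, with 2210 at an unadjusted p under 0.05. The 0 of the Kruskal-Wallis test says little, since with 4 muscles a group its smallest possible p was too large to pass the adjustment here. The replicate block, which pairs the legs of a mouse, gave 57, and 77 with median-ratio scaling. Leaving out 1 muscle gave 2 to 39, the most without siUBA1 replicate 4, and leaving out both legs of the mouse of replicate 1, 2, 3 or 4 gave 0, 4, 0 and 14, with 1102 to 2075 at an unadjusted p under 0.05 in limma. Genes of the set at an unadjusted p under 0.05 numbered 1 as reported, 3 with the replicate block, 4 with it and median-ratio scaling, 0 by the Kruskal-Wallis test, 0 to 1 without 1 muscle (0 without siNT replicate 4, siUBA1 replicate 1 or siUBA1 replicate 3), and 0 without the mouse of replicate 2 or 3. Which gene this is depends on the setting: Cdh15 as deposited, Myf6 with median-ratio scaling, Des with quantile normalization, and Myod1 without siNT replicate 1, siUBA1 replicate 2 or the mouse of replicate 1. The cause was not tested.

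Only Pax7, Myf5 and Mef2c changed sign, all near 0. Pax7 ranged with 1 muscle left out from -0.0086 to 0.24, with the negative value without siNT replicate 4, and Myf5 from -0.18 to 0.052. Without both legs of 1 mouse, Myf5 ranged from -0.25 to 0.063. Mef2c ranged with 1 muscle left out from -0.036 to 0.11, was -0.085 with median-ratio scaling (also with the replicate block or no filter), -0.028 with quantile normalization and -0.011 without the mouse of replicate 1. Mymx fell under the filter in the fits without siNT replicate 3 or 4 or siUBA1 replicate 1 or 3, and without the mouse of replicate 1, 3 or 4, and with a mean of 5 TPM Pax7, Myf5 and Mymx had no value. The adjusted p of Uba1 was under 0.05 with the replicate block (0.0278) and median-ratio scaling (0.0332), and the replicate block changed no call at the adjusted p within the set. Depth limits Mymx most, with 0 to 62 estimated reads a muscle.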
